A study of Mus musculus with 8 samples.

Results

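The constant genes of the immunoglobulin loci encode the part of an antibody chain that sets its class. Of the 54532 genes in the deposited table, 10 are described here: the heavy chain genes *Ighm*, *Ighd*, *Ighg3*, *Ighg1*, *Ighg2b*, *Ighg2c*, *Ighe* and *Igha*, and the light chain genes *Igkc* and *Iglc1*. They were selected on their difference between *Zeb1-/- EpCAM+* and *Zeb1-/- EpCAM-* libraries, known from an earlier look at these data, together with the other heavy chain classes, so their differences between the fractions are given as a description without a test. The heavy chain classes are read from 8 of the 10 genes and the light chain types from 2 of the 10.

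A B cell joins a variable segment to a constant gene and first makes IgM from *Ighm*. Class switch recombination later joins the DNA ahead of *Ighm* to that ahead of a downstream constant gene and deletes *Ighm* with the DNA between, so that the same variable segment is read with an IgG, IgE or IgA tail. Plasma cells are the end stage of this lineage and carry immunoglobulin RNA at very high levels. In the bone marrow, stem and progenitor cells can transcribe the unrearranged heavy chain locus before any antibody can be made, and such transcripts may hold *Ighm* sequence without a variable segment.

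The study deleted *Zeb1*, an epithelial-mesenchymal transition transcription factor, in mice and split their bone marrow stem and progenitor cells by the surface protein EpCAM. All 8 RNA-Seq libraries came from *Zeb1-/-* mice (*Zeb1 fl/fl;Mx1-Cre+*, C57BL/6, aged 8 to 12 weeks, 4 mice per genotype) treated with pIpC and taken 14 days after its last dose, 4 from the EpCAM+ and 4 from the EpCAM- fraction of Lin- Sca-1+ c-Kit+ (LSK) cells. *Mx1-Cre* is switched on by interferon, which pIpC induces, and also acts in nonhematopoietic cells of the marrow, and no library came from control mice. The antibodies of the lineage stain bind MAC1, GR1, TER119, B220, CD3e, CD4 and CD8a, and the plasma cell marker CD138 is not among their targets. The LSK gate also requires Sca-1 and c-Kit on the cell.

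The EpCAM+ libraries of replicates 1 to 4 held 15225714, 16743224, 17073546 and 15459106 counted reads. The EpCAM- libraries of replicates 1 to 4 held 15929923, 14114491, 15085883 and 14349327. *Zeb1* had 363, 261, 373 and 290 counts in EpCAM+ replicates 1 to 4 and 214, 189, 157 and 129 in EpCAM- replicates 1 to 4. Every library thus held *Zeb1* reads, and counts over a whole gene do not check the deletion of an exon.

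The LSK label was checked against 10 marker genes of stem and progenitor cells, and all 10 had at least 10 counts in every EpCAM- library. Their summed level was 2720, 2576, 2689 and 2598 CPM (counts per 1000000 reads of the library size as scaled by edgeR's TMM method) in EpCAM+ replicates 1 to 4, against 2201, 2270, 1824 and 1521 CPM in EpCAM- replicates 1 to 4. *Cd34* was the most abundant of them, and 7 of the 10 passed the test as higher in the EpCAM+ fraction, beside 21.8% of all 13560 genes tested. Of the sorted markers, *Kit* had at least 2096 counts in every library, and *Ly6a*, which encodes Sca-1, had 5370, 3444, 2513 and 1786 counts in EpCAM+ replicates 1 to 4 and 1149, 829, 241 and 214 in EpCAM- replicates 1 to 4.

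The 10 constant genes together took 4.66%, 0.351%, 0.568% and 0.349% of all counted reads in EpCAM+ replicates 1 to 4. In EpCAM- replicates 1 to 4 they took 0.0247%, 0.0228%, 0.0169% and 0.0111%. Thus the groups did not overlap, and EpCAM+ replicate 1 stood far above the other 3 EpCAM+ libraries. Summed, the genes reached 14617 ± 21110 CPM (SD, n = 4) in EpCAM+ libraries and 193 ± 60.2 CPM (SD, n = 4) in EpCAM- libraries. EpCAM+ replicate 1 held 11.4 times the mean of the other 3, and without it the EpCAM+ mean was 4073 ± 1160 CPM (SD, n = 3). Fewer cells of a type and less RNA per cell cannot be told apart in these libraries. The reads carry no molecular identifiers, so the intervals and floors given here cover counting error only.

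**Figure D1:**
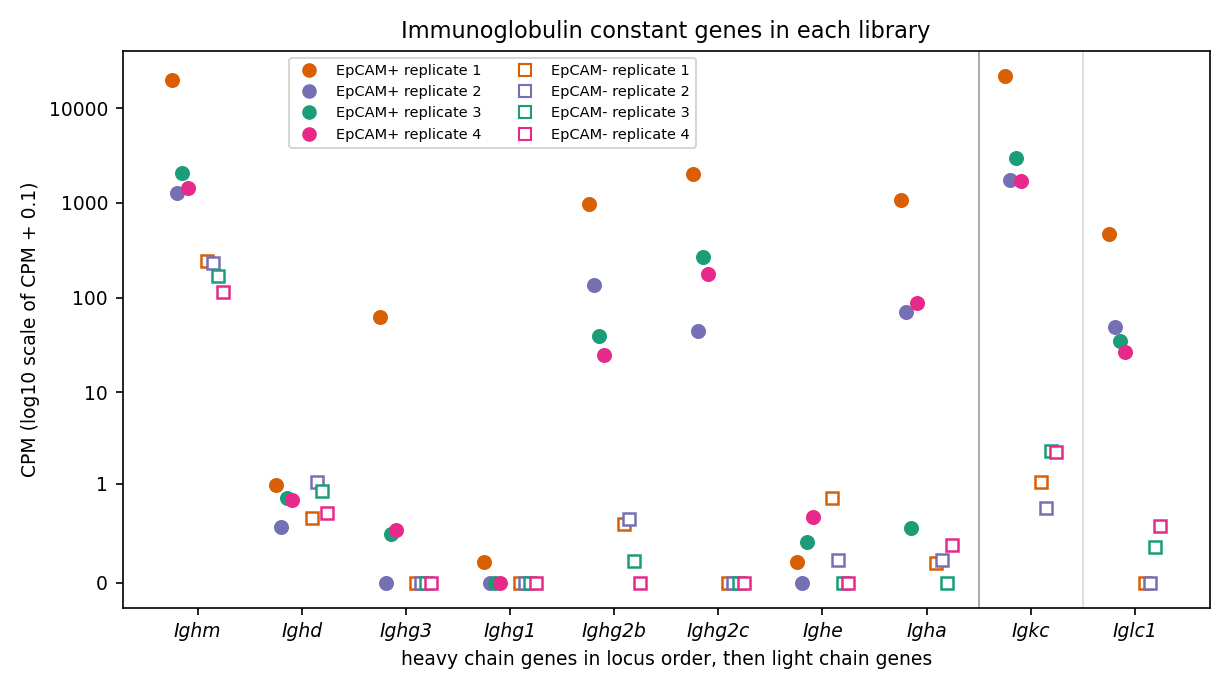
CPM of each constant gene in each library on a log axis (log10 of CPM + 0.1); filled circles are EpCAM+ libraries, open squares EpCAM- libraries, and colors mark the replicate number. EpCAM+ replicate 1 is the highest library for 8 of the 10 genes, *Ighd* and *Ighe* lie near 0 in every library, and *Ighm* alone stays above 100 CPM in EpCAM- libraries.

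Of the 10 genes, 6 were higher in each EpCAM+ library than in any EpCAM- library (*Ighm*, *Igha*, *Ighg2b*, *Ighg2c*, *Igkc* and *Iglc1*). The same order held for 20.1% of the 13560 genes tested, and nothing is read from the count of these 10, since their difference selected them. edgeR's filter on low counts kept 6 of the 10 (*Ighm*, *Ighd*, *Ighg2b*, *Ighg2c*, *Igkc* and *Iglc1*), of which *Ighg2b*, *Ighg2c*, *Igkc* and *Iglc1* entered through the EpCAM+ libraries alone. Of the 10, 3 (*Ighd*, *Ighg1* and *Ighe*) never exceeded 15 counts in a library.

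*Ighm* encodes the μ chain of IgM (ENSMUSG00000076617, GRCm38 chr12:113418558-113422730, minus strand). It had 306208, 22560, 37012 and 22392 counts in EpCAM+ replicates 1 to 4 and 3900, 3190, 2497 and 1552 in EpCAM- replicates 1 to 4. There was no overlap between the fractions, and *Ighm* was the only constant gene of the 10 with more than 50 counts in an EpCAM- library. The level was 6189 ± 9193 CPM (SD, n = 4) in EpCAM+ libraries and 190.5 ± 60.7 CPM (SD, n = 4) in EpCAM- libraries, and the fitted log2 difference was 5.02 (standard error 0.95). It was 3.06 without EpCAM+ replicate 1 and 3.94 with the replicate number as a block.

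*Ighd* lies directly behind *Ighm*, and its δ chain reaches the surface of naive B cells by alternative splicing of one long transcript (ENSMUSG00000104213, chr12:113406604-113416324, minus strand). It had 15, 5, 12 and 10 counts in EpCAM+ replicates 1 to 4 and 6, 14, 12 and 6 in EpCAM- replicates 1 to 4. The fractions overlapped, at 0.644 ± 0.284 CPM (SD, n = 4) against 0.666 ± 0.313 CPM (SD, n = 4). The fitted log2 difference was -0.05 (standard error 0.46), and its sign changed with upper-quartile scaling (0.03), with library totals (0.03) and without EpCAM+ replicate 2 (0.20), EpCAM- replicate 2 (0.22) or EpCAM- replicate 3 (0.06). A difference was not detectable at this depth.

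The γ genes encode the IgG subclasses and follow *Ighd* in the order *Ighg3*, *Ighg1*, *Ighg2b* and *Ighg2c*. *Ighg2c* takes the place of *Ighg2a* in C57BL/6 mice, and the table lists no *Ighg2a*. *Ighg2c* (ENSMUSG00000076612, chr12:113285325-113288932, minus strand) had 30649, 794, 4816 and 2744 counts in EpCAM+ replicates 1 to 4 and 0 counts in all 4 EpCAM- libraries. All 4 EpCAM+ libraries were high, and they differed among themselves by 44.5 times in CPM. The mean of 622 ± 922 CPM (SD, n = 4) was at least 2990-fold higher than a floor of 3 counts in each EpCAM- library, and at least 786-fold higher without EpCAM+ replicate 1.

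*Ighg2b* (ENSMUSG00000076613, chr12:113302965-113307933, minus strand) had 14854, 2404, 702 and 382 counts in EpCAM+ replicates 1 to 4 and 5, 5, 1 and 0 in EpCAM- replicates 1 to 4. No EpCAM- library reached an EpCAM+ one, and replicate 2 ranked second here although it was the lowest for *Ighg2c*. The level was 292 ± 454 CPM (SD, n = 4) against 0.187 ± 0.18 CPM (SD, n = 4), with a fitted log2 difference of 10.53 (standard error 1.71) that was 8.39 without EpCAM+ replicate 1.

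The other IgG subclasses were rare. *Ighg3* (ENSMUSG00000076615, chr12:113356224-113361232, minus strand) had 955, 0, 4 and 4 counts in EpCAM+ replicates 1 to 4 and 0 in all 4 EpCAM- libraries. Its mean was at least 75.4-fold above the floor of 3 counts per library, a bound that rested on EpCAM+ replicate 1 alone and could not be given without it. *Ighg1* (ENSMUSG00000076614, chr12:113325240-113330523, minus strand) had 1 count in EpCAM+ replicate 1 and 0 in the other 7 libraries, so the 4 EpCAM+ libraries together held 1 *Ighg1* read against 39003 of *Ighg2c* and 18342 of *Ighg2b*.

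*Igha*, the last gene of the locus, encodes the α chain of the mucosal antibody IgA (ENSMUSG00000095079, chr12:113254830-113260236, minus strand). It had 16424, 1248, 5 and 1358 counts in EpCAM+ replicates 1 to 4 and 1, 1, 0 and 2 in EpCAM- replicates 1 to 4. The fractions did not overlap, but EpCAM+ replicate 3 lay close to the EpCAM- libraries while the other 3 EpCAM+ libraries were high. The pooled EpCAM+ level was 4151 times the pooled EpCAM- level (95% counting interval 1621 to 15236), and 740.3 times without EpCAM+ replicate 1. *Ighe*, which encodes the ε chain of IgE (ENSMUSG00000087642, chr12:113269260-113273248, minus strand), had 1, 0, 3 and 6 counts in EpCAM+ replicates 1 to 4 and 11, 1, 0 and 0 in EpCAM- replicates 1 to 4. It overlapped between the fractions and stayed near 0.

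*Igkc* is the single κ light chain constant gene (ENSMUSG00000076609, chr6:70726435-70726966, plus strand). It had 332920, 30889, 53850 and 26580 counts in EpCAM+ replicates 1 to 4 and 17, 7, 34 and 31 in EpCAM- replicates 1 to 4. Again the fractions lay apart, and the EpCAM- libraries held almost none although all 4 of them held *Ighm*. The level was 7045 ± 9796 CPM (SD, n = 4) against 1.54 ± 0.898 CPM (SD, n = 4), with a fitted log2 difference of 12.15 (standard error 1.24) that was 10.44 without EpCAM+ replicate 1.

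*Iglc1* encodes a λ light chain constant region (ENSMUSG00000105906, chr16:19061618-19062071, minus strand). It had 7156, 872, 630 and 413 counts in EpCAM+ replicates 1 to 4 and 0, 0, 2 and 4 in EpCAM- replicates 1 to 4. The fractions did not overlap, and replicate 1 again stood above the other EpCAM+ libraries. The level was 144 ± 215 CPM (SD, n = 4) against 0.107 ± 0.14 CPM (SD, n = 4), with a fitted log2 difference of 10.33 (standard error 1.58). It was 8.37 without EpCAM+ replicate 1 and 11.40 without EpCAM- replicate 4.

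Per kilobase of gene length, *Igkc* was the first and *Ighm* the second of the 10 genes in each of the 4 EpCAM+ libraries. On this scale *Igkc* reached 40811, 3284, 5643 and 3232 CPM per kilobase in EpCAM+ replicates 1 to 4. *Ighm* reached 10588, 677, 1094 and 768 CPM per kilobase in the same libraries. Next in CPM per kilobase was *Ighg2c* in replicates 1, 3 and 4 and *Iglc1* in replicate 2, at 109 CPM per kilobase. The place of *Iglc1* in replicate 2 rested on the table's length of 2678 bases for *Ighg2b*. With the 1114 bases of the shortest *Ighg2b* transcript, *Ighg2b* came before *Iglc1* there. *Igha* and *Ighg2b*, at group means of 115 and 109 CPM per kilobase, did not differ beyond their spread, since *Igha* was the higher in replicates 1 and 4 and *Ighg2b* in replicates 2 and 3. Without EpCAM+ replicate 1 their means were 19.8 and 24.9 CPM per kilobase. In all 4 EpCAM- libraries *Ighm* was first, with 129, 125, 90.1 and 60.4 CPM per kilobase in replicates 1 to 4, and *Igkc* second, with 1.99, 0.971, 4.35 and 4.28 CPM per kilobase.

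The class composition was read as each gene's share of the 8 heavy chain constant genes' counts within a library, which does not move with the total. *Ighm* made up 82.96% (exact Clopper-Pearson 95% confidence interval 82.8% to 83.1%) of 369107 heavy chain counts in EpCAM+ replicate 1. It made up 83.5% (83.1% to 84.0%) of 27011 in replicate 2. It made up 86.98% (86.7% to 87.3%) of 42554 in replicate 3 and 83.3% (82.8% to 83.7%) of 26896 in replicate 4. The *Ighm* share was therefore close to constant, at 84.2% ± 1.88 (SD, n = 4), across EpCAM+ libraries whose heavy chain counts differed widely. In EpCAM- libraries it was 99.4% ± 0.0665 (SD, n = 4), and every EpCAM- library lay above every EpCAM+ library.

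The 4 IgG genes together also held a narrow share, 12.6%, 11.8%, 12.98% and 11.6% in EpCAM+ replicates 1 to 4 (mean 12.3% ± 0.628, SD, n = 4). *Igha* held 4.45%, 4.62%, 0.0117% and 5.05%. The library that nearly lacked IgA, replicate 3, was also the one with the highest *Ighm* share. Shares of the same total are tied, so a nearly absent class raises the others and this is not a separate result. All genes behind *Ighd* together held 17.04%, 16.5%, 13.0% and 16.7%.

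The IgG subclasses behind that narrow total differed between libraries. Of the counts on the 6 genes behind *Ighd*, *Ighg2c* held 48.7%, 17.9%, 87.1% and 61.1% in EpCAM+ replicates 1 to 4. *Ighg2b* held 23.6%, 54.1%, 12.7% and 8.5%. *Igha* held 26.1%, 28.1%, 0.0904% and 30.2%. *Ighg2c* led in replicates 1, 3 and 4 and *Ighg2b* in replicate 2. These shares are of counts without regard to gene length. The same genes led in CPM per kilobase, but in replicate 2 the values were 50.8 for *Ighg2b*, 33.9 for *Ighg2c* and 26.5 for *Igha*. On that scale *Ighg2c* thus lay above *Igha* in replicate 2, but this order rested on the table's lengths, 1326 bases for *Ighg2c* and 2668 for *Igha*. Their shortest transcripts have 1111 and 1100 bases, and with these lengths *Igha* lay above *Ighg2c* in replicate 2. The counting interval for *Ighg2c* ran from 16.7% to 19.0% in replicate 2 and from 86.2% to 87.96% in replicate 3. Such intervals leave out any other spread between separate libraries, so these differences are a description. *Ighg3* held 1.52% in replicate 1, 0 of 4446 counts in replicate 2, which allows a share of up to 0.0829% by the exact interval, and 0.0723% and 0.0890% in replicates 3 and 4.

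**Figure D2:**
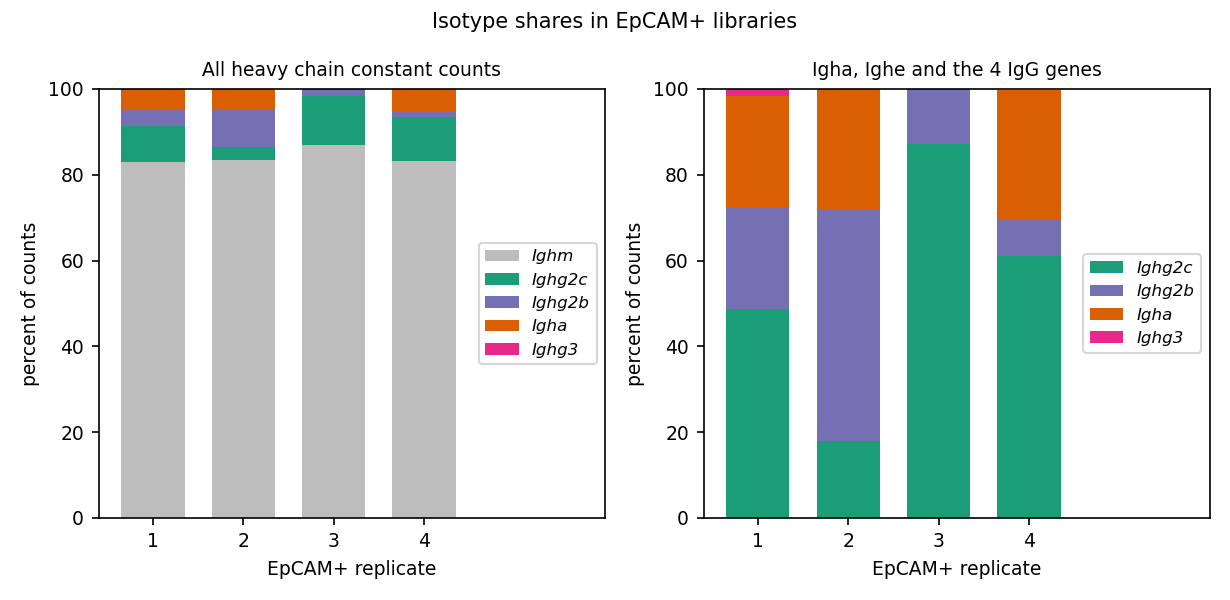
Percent of constant gene counts in each EpCAM+ library, over all 8 heavy chain genes (left) and over the 6 genes behind *Ighd* (right); genes with too few counts to see are not drawn. The *Ighm* share lies between 82.96% and 86.98% in all 4 libraries, while *Ighg2c* ranges from 17.9% to 87.1% of the genes behind *Ighd*.

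Light chain counts were mostly κ. *Iglc1* made up 2.10%, 2.75%, 1.16% and 1.53% of *Igkc* plus *Iglc1* counts in EpCAM+ replicates 1 to 4 (mean 1.88% ± 0.694, SD, n = 4). With the other λ constant genes *Iglc2*, *Iglc3* and *Iglc4* added, the λ share was 3.96%, 3.16%, 3.55% and 8.19%. Counted on variable genes instead, it was 8.37%, 8.69%, 8.2% and 17.98%. Replicate 4 was the highest by both of these measures, and *Iglc1* alone did not show it.

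The leading λ constant gene also differed between EpCAM+ libraries. *Iglc1* made up 52.2%, 86.4%, 31.8% and 17.4% of the λ constant counts in replicates 1 to 4. *Iglc2*, with 4398, 96, 172 and 999 counts, made up 32.1%, 9.51%, 8.67% and 42.2%. *Iglc3*, with 2136, 40, 1182 and 957 counts, made up 15.6%, 3.96%, 59.6% and 40.4%. Thus *Iglc1* led in replicates 1 and 2 and *Iglc3* in replicate 3. In replicate 4 the leader depended on the scale, *Iglc2* by counts and *Iglc3* by CPM per kilobase with the table's lengths (137 against 106). The table gives *Iglc2* 612 bases, and with the 458 bases of its shortest transcript *Iglc2* led per kilobase too. Of the 452 exon bases of *Iglc3*, 93 also lie in an exon of *2010309G21Rik* on the opposite strand. *Iglc4* had 23, 1, 0 and 1 counts in EpCAM+ libraries, and in EpCAM- libraries none of the λ constant genes exceeded 7 counts.

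Because the IgG and λ results rest on telling closely related genes apart, the start of each coding region is printed from the reference. The 90 bases below begin at the first whole codon of the first coding exon, minus strand of GRCm38, and capitals mark bases that differ from *Ighg2c* (chr12:113288841-113288930). *Ighg2b* (chr12:113307842-113307931) differs at 8 positions, *Ighg1* (chr12:113330432-113330521) at 19 and *Ighg3* (chr12:113361141-113361230) at 18.
Ighg2c: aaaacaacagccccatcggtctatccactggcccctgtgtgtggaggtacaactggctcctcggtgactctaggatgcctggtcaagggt
Ighg2b: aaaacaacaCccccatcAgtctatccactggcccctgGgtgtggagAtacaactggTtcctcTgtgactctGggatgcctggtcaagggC
Ighg1: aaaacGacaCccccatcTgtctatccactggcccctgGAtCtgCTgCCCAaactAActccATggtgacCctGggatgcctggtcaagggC
Ighg3: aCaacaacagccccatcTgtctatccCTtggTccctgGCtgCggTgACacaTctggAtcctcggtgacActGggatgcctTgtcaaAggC

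The λ genes are shown in the same way, with capitals for bases that differ from *Iglc1* (chr16:19061980-19062069, minus strand). *Iglc2* (chr16:19198761-19198850) differs at 19 of the 90 positions and *Iglc3* (chr16:19065590-19065679) at 20.
Iglc1: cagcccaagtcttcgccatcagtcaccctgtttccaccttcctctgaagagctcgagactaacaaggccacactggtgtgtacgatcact
Iglc2: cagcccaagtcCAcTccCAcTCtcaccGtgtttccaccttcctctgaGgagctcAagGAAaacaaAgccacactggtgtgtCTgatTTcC
Iglc3: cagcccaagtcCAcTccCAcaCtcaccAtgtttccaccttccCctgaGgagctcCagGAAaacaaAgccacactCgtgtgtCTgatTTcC

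Over their whole transcripts the 13 constant genes shared no window of 150 bases, the length of a read. At 50 bases, 70 of the 1276 windows of *Ighg2c* (5.49%) also occurred in *Ighg2b*, and 43 of the 562 windows of *Iglc2* (7.65%) occurred in *Iglc3*. How the authors treated reads that align to several genes is not stated. Most heavy chain genes have a secreted and a membrane transcript form, and counts per gene do not separate them.

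The ratio of heavy to light chain also differed between the fractions. *Ighm* had 0.920, 0.730, 0.687 and 0.842 counts per *Igkc* count in EpCAM+ replicates 1 to 4. It had 229, 456, 73.4 and 50.1 counts per *Igkc* count in EpCAM- replicates 1 to 4. On the scale of counts per kilobase these ratios were 0.259, 0.206, 0.194 and 0.238 in EpCAM+ libraries and 64.7, 129, 20.7 and 14.1 in EpCAM- libraries. The EpCAM+ ratio was narrow while the totals varied, and the EpCAM- ratio rested on 7 to 34 *Igkc* counts.

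Variable genes were compared with the constant genes in the same library. Heavy chain variable genes had 36446, 2919, 4853 and 3218 counts in EpCAM+ replicates 1 to 4, which is 9.87, 10.8, 11.4 and 11.96 per 100 heavy chain constant counts. In EpCAM- replicates 1 to 4 they had 31, 43, 25 and 16 counts, which is 0.790, 1.34, 0.996 and 1.03 per 100. The EpCAM- heavy chain reads therefore lay almost wholly on *Ighm* with few variable segments, and the fractions did not overlap. For κ the picture differed: variable genes had 28.0, 26.4, 28.6 and 27.6 counts per 100 *Igkc* counts in EpCAM+ libraries, and, over all EpCAM- libraries together, 24 counts beside 89 of *Igkc*, or 27.0 per 100.

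The joining segment *Ighj1*, chosen after its values were seen, went the other way. It had 14, 18, 15 and 15 counts in EpCAM+ replicates 1 to 4 and 45, 31, 23 and 18 in EpCAM- replicates 1 to 4. In EpCAM- replicates 1 to 4 this was 1.15, 0.972, 0.921 and 1.16 per 100 *Ighm* counts. In EpCAM+ replicates 1 to 4 it was 0.00457, 0.0798, 0.0405 and 0.0670 per 100. *Ighj1* was close to proportional to *Ighm* in the EpCAM- libraries alone.

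**Figure D3:**
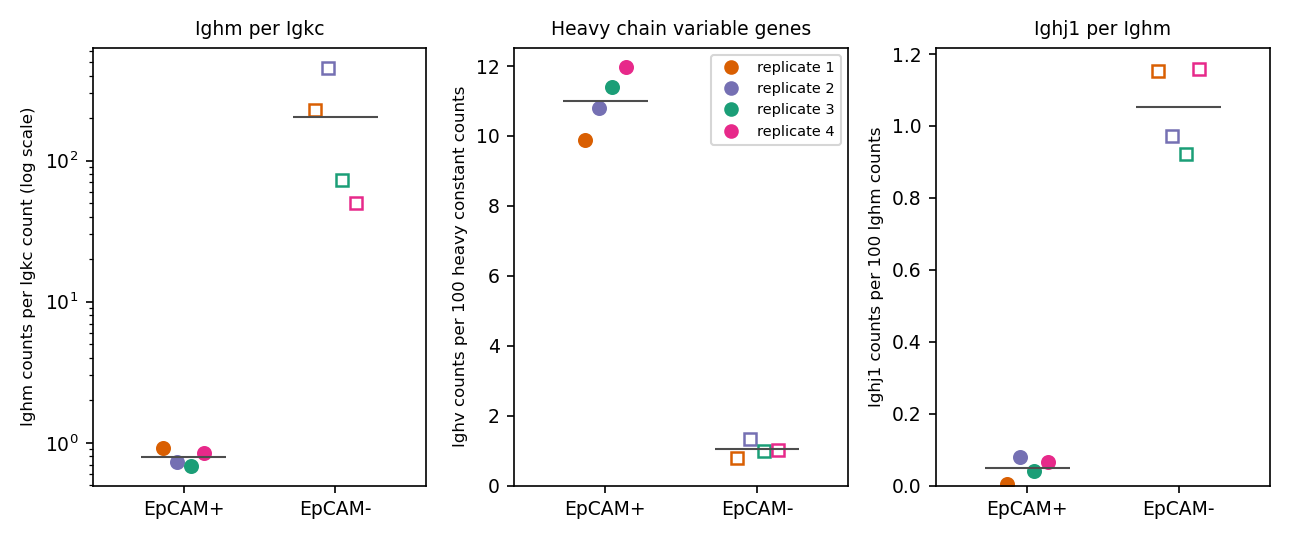
Counts of *Ighm* per *Igkc* count (left, log axis), of heavy chain variable genes per 100 heavy chain constant counts (middle) and of *Ighj1* per 100 *Ighm* counts (right) in each library; filled circles are EpCAM+, open squares EpCAM-, colors mark the replicate number and lines the group means. The fractions do not overlap in any of the 3 ratios, and heavy chain variable genes reach 9.87 to 11.96 per 100 in EpCAM+ libraries against 0.790 to 1.34 in EpCAM- libraries.

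Genes of antibody production outside the 10 went into a test of all genes, edgeR's two-sided quasi-likelihood test with Benjamini-Hochberg adjustment (threshold 0.05). Of all 13560 genes tested, 21.8% were higher and 20.8% lower in the EpCAM+ fraction, with a median log2 difference of 0.02. Of 79 genes in 7 lists, 60 were tested, 16 were higher, 15 were lower and 29 did not pass, with a median of 0.05. Of the 31 that passed, 5 (*Jchain*, *Mzb1*, *Pou2af1*, *Cd79a* and *Fcrla*) got past the low-count filter through the EpCAM+ libraries alone, so a level high enough there was the condition for being tested, their calls support nothing, and their values are given as a description without a p. Where the rule for named genes left out a gene that passed, it is named below as chosen after its values were seen.

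Of 7 tested genes for the surrogate light chain and V(D)J recombination, 1 was higher and 6 did not pass (median log2 difference 0.04). *Xrcc4*, a DNA ligation factor, was higher in all 4 EpCAM+ libraries than in any EpCAM- library (log2 difference 0.63, standard error 0.14, adjusted p = 0.00461). *Dntt*, which adds bases at the joints, had 1544, 2072, 1789 and 1614 counts in EpCAM+ replicates 1 to 4 and 3178, 2908, 1127 and 535 in EpCAM- replicates 1 to 4, and did not pass (adjusted p = 0.557). *Rag2*, a subunit of the recombinase, had a log2 difference of -1.03 that did not pass (adjusted p = 0.0515) and passed in 5 alternative settings, among them the replicate number as a block (adjusted p = 0.0357), leaving out EpCAM+ replicate 4 (adjusted p = 0.00949) and leaving out EpCAM- replicate 3 (adjusted p = 0.0410). Its partner *Rag1* had at most 4 counts in a library. *Vpreb3* had a log2 difference of 1.10 and did not pass (adjusted p = 0.0828).

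Of 7 tested partners of the B cell receptor, 3 were higher and 1 lower (median 0.30). *Cd79a*, a signaling chain of the receptor, had 556, 35, 88 and 76 counts in EpCAM+ replicates 1 to 4 and 12, 29, 9 and 21 in EpCAM- replicates 1 to 4. Its scaled levels overlapped between the fractions through EpCAM+ replicate 2, and the log2 difference was 3.26 (standard error 0.89), 1.64 without EpCAM+ replicate 1, and 2.59 with the replicate number as a block. *Cd72*, an inhibitory coreceptor, was higher in all 4 EpCAM+ libraries (log2 difference 0.94, adjusted p = 0.00370), and *Btk*, a kinase, was lower in all 4 (-0.32, adjusted p = 0.00715). *Syk*, another kinase, was higher by a log2 difference of 0.23 (adjusted p = 0.0388), a call lost in 7 of the alternative settings, among them leaving out EpCAM+ replicate 1, 2 or 3 or EpCAM- replicate 2 or 4 (adjusted p from 0.0590 to 0.110).

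Of 8 tested genes of class switching and hypermutation, 1 was higher and 2 were lower (median -0.01). *Trp53bp1*, which protects DNA ends during joining, was higher (log2 difference 0.63, adjusted p = 0.00209), and the exonuclease *Exo1* (-0.28, adjusted p = 0.00727) and the ubiquitin ligase *Rnf8* (-0.47, adjusted p = 0.0122) were lower, each in 4 of 4 libraries. *Msh6*, of mismatch repair, did not pass (0.06, adjusted p = 0.490).

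Among transcription factors, 1 of 7 tested genes was higher and 2 were lower (median 0.08). *Pou2af1*, the B cell coactivator of immunoglobulin promoters, had 178, 16, 38 and 26 counts in EpCAM+ replicates 1 to 4 and 0, 2, 1 and 0 in EpCAM- replicates 1 to 4. The fractions did not overlap, and the log2 difference was 6.08 (standard error 1.17), 4.71 without EpCAM+ replicate 1 and 7.05 without EpCAM- replicate 2. *Tcf3* (-0.51, adjusted p = 0.00650), an E protein of early B lineage cells, and *Ell2* (-0.94, adjusted p = 0.0117), an elongation factor that favors the secreted form of heavy chain RNA, were lower in all 4 EpCAM+ libraries. *Pou2f2*, the DNA-binding partner of *Pou2af1*, did not pass (-0.52, adjusted p = 0.0682) except with DESeq2 (adjusted p = 0.0411) and without EpCAM- replicate 4 (adjusted p = 0.00510). *Pax5*, which holds B cell identity, had 0 counts in all 8 libraries. *Irf4*, which drives plasma cell fate, had too few counts for the test, with 38, 1, 5 and 7 in EpCAM+ replicates 1 to 4 and 0, 0, 1 and 0 in EpCAM- replicates 1 to 4. Of other regulators of that fate, *Prdm1*, also with too few counts for the test, had 14, 8, 10 and 12 in EpCAM+ replicates 1 to 4 and 8, 8, 1 and 0 in EpCAM- replicates 1 to 4, and *Xbp1* did not pass (0.08, adjusted p = 0.767). *Irf4*, *Prdm1* and *Xbp1* overlapped between the fractions. *Ikzf3* of the same list, chosen after its values were seen, also had too few counts for the test. It had 45, 6, 12 and 7 counts in EpCAM+ replicates 1 to 4 and 1, 0, 0 and 0 in EpCAM- replicates 1 to 4, without overlap.

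Antibody assembly and secretion split by gene. Of 15 tested genes, 3 were higher and 6 lower (median -0.22). *Jchain*, which links IgM and IgA into polymers, had 53916, 3902, 7671 and 3069 counts in EpCAM+ replicates 1 to 4 and 4, 0, 4 and 0 in EpCAM- replicates 1 to 4. It followed the heavy chain genes, with 14.6, 14.4, 18.0 and 11.4 counts per 100 heavy chain constant counts in EpCAM+ replicates 1 to 4 against at most 0.159 in an EpCAM- library. *Mzb1*, an endoplasmic reticulum chaperone of IgM assembly, had 754, 109, 146 and 98 counts in EpCAM+ replicates 1 to 4 and 5, 2, 2 and 6 in EpCAM- replicates 1 to 4. The fractions did not overlap for either gene. The log2 difference of *Mzb1* was 6.03 (standard error 0.94), and 4.68 without EpCAM+ replicate 1. That of *Jchain* was 12.87 (standard error 1.56), and 10.91 without EpCAM+ replicate 1.

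The other gene that passed as higher was *Derl3*, of protein quality control in the endoplasmic reticulum, with a log2 difference of 1.66 (adjusted p = 0.0203), 0.89 without EpCAM+ replicate 1 and no longer past the threshold without EpCAM- replicate 4 (adjusted p = 0.0569). *Hsp90b1*, the chaperone GRP94, had a log2 difference of -0.50 (adjusted p = 0.00454) and the disulfide isomerase *Pdia6* one of -0.48 (adjusted p = 0.00297), each lower in 4 of 4 EpCAM+ libraries. The other 4 that passed as lower were *Sdf2l1*, *Manf*, *Hspa5* and *Pdia4*, with log2 differences from -0.71 to -0.46, and the calls of *Hspa5* and *Pdia4* were lost in 5 and 6 of the alternative settings, upper-quartile scaling and library totals among them.

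Of 9 tested Fc receptors and antibody carriers, 3 were higher and 3 lower (median -0.87). *Fcgrt*, the receptor that recycles IgG, had 746, 371, 380 and 763 counts in EpCAM+ replicates 1 to 4 and 141, 71, 62 and 74 in EpCAM- replicates 1 to 4, without overlap (log2 difference 2.56, standard error 0.35, adjusted p = 0.000509). The low-affinity IgG receptor *Fcgr3* had 54, 44, 85 and 145 counts in EpCAM+ replicates 1 to 4 and 1897, 593, 1049 and 726 in EpCAM- replicates 1 to 4 (log2 difference -3.84, standard error 0.42, adjusted p = 0.000218). The inhibitory IgG receptor *Fcgr2b* (-1.14, adjusted p = 0.000764) and the shared γ chain *Fcer1g* (-1.11, adjusted p = 0.000181) were also lower in 4 of 4 libraries. The other genes that passed as higher were *Fcrla*, with 706, 73, 194 and 732 counts in EpCAM+ replicates 1 to 4 and 14, 1, 3 and 4 in EpCAM- replicates 1 to 4 (log2 difference 6.13, and 7.08 without EpCAM- replicate 1), and *Trim21*, an Fc receptor of the cytosol (0.45, adjusted p = 0.0287), whose call was lost without EpCAM+ replicate 1 or EpCAM- replicate 2, 3 or 4 (adjusted p from 0.0631 to 0.0846).

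Of 7 tested receptors for signals that direct switching or keep B lineage cells alive, 4 were higher and 1 lower (median 0.43). *Tnfrsf13c*, the BAFF receptor, had 210, 181, 207 and 199 counts in EpCAM+ replicates 1 to 4 and 109, 78, 61 and 24 in EpCAM- replicates 1 to 4 (log2 difference 1.38, standard error 0.32, adjusted p = 0.00630). *Tnfrsf13b*, which encodes TACI (0.43, adjusted p = 0.00618), and *Tgfbr2*, a receptor of the cytokine that directs IgA switching (0.55, adjusted p = 0.0149), were higher in 4 of 4 libraries. *Il21r* was too (0.66, adjusted p = 0.0207), and no longer passed without EpCAM- replicate 3 (adjusted p = 0.0649). *Ifngr1*, a receptor of the cytokine that directs switching to IgG2c, was the gene that passed as lower (-0.61, adjusted p = 0.0368), and its call was lost with upper-quartile scaling (adjusted p = 0.0605) and without EpCAM+ replicate 2 or 3 or EpCAM- replicate 3 or 4 (adjusted p from 0.0784 to 0.0988).

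Markers of plasma, B, dendritic and T cells were in part higher in the EpCAM+ fraction, and their part in the differences of the constant genes was not tested. Several of the higher ones (*Jchain*, *Mzb1*, *Slamf7*, *Cd79a*, *Ms4a1*, *Xcr1*, *Clec9a*, *Ccr9*, *Ly6d* and *Trbc1*) got past the low-count filter through the EpCAM+ libraries alone, so the counts of higher markers are a description. For all marker counts that follow, the share over all 13560 genes tested was 21.8% higher and 20.8% lower. Of 11 plasma cell markers, 8 were tested and 5 were higher, and 9 of the 11 also stood in another list. Their summed level was 4198, 559, 811 and 591 CPM in EpCAM+ replicates 1 to 4 and 354, 353, 331 and 248 CPM in EpCAM- replicates 1 to 4, with *Jchain* the most abundant in the EpCAM+ fraction. By this sum, as by the summed constant genes, replicate 1 was first and replicate 3 next among the EpCAM+ libraries, while replicates 2 and 4 were close and their order under the constant genes changed between CPM and the share of all counts. In the marker sum, the place of replicate 3 above replicate 4 depended on *Jchain*, which had 428 CPM in EpCAM+ replicate 3 and 199 CPM in EpCAM+ replicate 4. *Sdc1*, which encodes CD138, had 393, 121, 157 and 85 counts in EpCAM+ replicates 1 to 4 and 125, 78, 51 and 31 in EpCAM- replicates 1 to 4, and did not pass without a block (adjusted p = 0.0704). Within each replicate number it was higher in the EpCAM+ library, at 25.6, 6.84, 8.75 and 5.5 CPM against 7.78, 5.76, 3.47 and 2.27 CPM. *Tnfrsf17*, chosen after its values were seen, had too few counts for the test. It had 158, 7, 27 and 10 counts in EpCAM+ replicates 1 to 4 and 1, 2, 0 and 0 in EpCAM- replicates 1 to 4, without overlap.

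Of 10 B cell markers, 3 were tested and 2 were higher. Their summed level was 124, 77.7, 72.8 and 85.2 CPM in EpCAM+ replicates 1 to 4 and 55.2, 79.1, 52.9 and 46.6 CPM in EpCAM- replicates 1 to 4, mostly *Cd79b*. *Ms4a1*, which encodes the B cell surface protein CD20 and was chosen after its values were seen, had 196, 21, 41 and 112 counts in EpCAM+ replicates 1 to 4 and 0, 0, 2 and 0 in EpCAM- replicates 1 to 4. Of 8 markers of pro-B and pre-B cells, 5 were tested and edgeR called 0, against 2 at an unadjusted p under 0.05 and 1 (*Rag2*, lower) by DESeq2. Their summed level was 108, 123, 107 and 116 CPM in EpCAM+ replicates 1 to 4 and 207, 227, 82.6 and 46.4 CPM in EpCAM- replicates 1 to 4, mostly *Dntt*.

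Of 8 dendritic cell markers, 7 were tested and 5 were higher, with a summed level of 376, 128, 169 and 300 CPM in EpCAM+ replicates 1 to 4 and 116, 137, 130 and 115 CPM in EpCAM- replicates 1 to 4. *Bst2* was the most abundant. Here replicates 1 and 4 were the high libraries, whereas replicate 4 was among the low EpCAM+ libraries for *Igkc* and *Ighm*. Of 8 T cell markers, 3 were tested and 3 were higher, with a summed level of 56.4 to 67.5 CPM in EpCAM+ and 17.2 to 29.2 CPM in EpCAM- libraries, mostly *Lck*, while *Cd3e* had 1 count in EpCAM+ replicate 4 and 0 in the other 7 libraries. Of 8 neutrophil and monocyte markers, 7 were tested and 1 was lower, with a summed level of 325, 90.6, 161 and 122 CPM in EpCAM+ replicates 1 to 4 and 908, 153, 405 and 264 CPM in EpCAM- replicates 1 to 4, mostly *Ly6c2*. The order of the replicates, 1, 3, 4 and 2, was the same in both fractions, and each EpCAM+ library lay below the EpCAM- library of the same number. The marker that passed as lower was *Csf1r*, chosen after its values were seen, with 12, 31, 27 and 48 counts in EpCAM+ replicates 1 to 4 and 494, 308, 344 and 231 in EpCAM- replicates 1 to 4 (log2 difference -3.71, adjusted p = 0.000125). Of 7 erythroid markers, 1 was higher and 4 were lower, with a summed level of 35.6 to 80.7 CPM in EpCAM+ and 278 to 669 CPM in EpCAM- libraries, and *Klf1* was the most abundant.

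The genes whose profile over the 8 libraries was most like that of the summed constant genes were found among 13537 tested genes outside the immunoglobulin loci, by the root mean square difference of log2 CPM after each profile's mean was subtracted. They were *Mzb1* (0.625), *Pou2af1* (0.814), *Cldn7* (0.888), *Ly6d* (0.890) and *Rasgrp3* (0.918). *Ly6d* had 758, 133, 124 and 81 counts in EpCAM+ replicates 1 to 4 and 9, 6, 4 and 13 in EpCAM- replicates 1 to 4. *Cldn7*, which encodes a tight junction protein, had 873, 186, 302 and 662 counts in EpCAM+ replicates 1 to 4 and 15, 11, 11 and 2 in EpCAM- replicates 1 to 4. Both were highest in EpCAM+ replicate 1, as the constant genes were.

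The profile of *Igkc* alone was matched closely by *Jchain* (root mean square difference 0.686 log2 units), and the next genes lay much farther away. They were *Gpr141b* (2.37), the dendritic cell chemokine receptor *Xcr1* (2.56), *Tlr11* (2.64) and the class II invariant chain *Cd74* (3.00). *Xcr1* had 2251, 202, 640 and 2018 counts in EpCAM+ replicates 1 to 4, so that its replicate 4 was nearly as high as its replicate 1, while *Igkc* was lowest in replicate 4.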

How the data were processed

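RNA from 8 samples was sequenced as paired reads of 150 bases. The authors aligned reads to GRCm38.p6 with STAR 2.6.1d and deposited raw read counts per gene from featureCounts 1.5.0-p3 in 1 table. The FPKM values that the authors deposited (scaled by gene length and counted reads) were used only to read off gene lengths. Columns with the authors' comparisons (fold changes and p-values, between fractions and within pairs of libraries) were not used.

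Counts were analysed in R 4.3.3 with edgeR 4.0.16 (filterByExpr, TMM, quasi-likelihood test, two-sided, Benjamini-Hochberg, threshold 0.05) and DESeq2 1.42.0, and in Python 3.11.15 with scipy 1.17.1 and matplotlib 3.10.9. Standard errors came from the F statistic. CPM are counts over library sizes scaled by TMM. A prior count of 2 entered log2 CPM. The procedure was tested on simulated data, but the outcome is not reported here and no result rests on it. Folds against a group at 0 used a floor of 3 counts per library. Positions of the 13 constant genes equal those of GENCODE M21, whose transcripts gave the sequences.

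Constant genes and gene lists were chosen with earlier results of these data known. Named genes were all 10 constant genes, *Iglc2*, *Iglc3* and *Iglc4*, up to 4 genes of each pathway list with the smallest adjusted p, the 5 genes most like the summed constant genes and the 5 most like *Igkc*, and of each marker list the most abundant gene and those at 0. Other markers, *Ighj1*, *Ikzf3* and 8 further pathway genes that passed were added with their values in view. Not every listed gene is reported by name.

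The replicate numbers pair the samples by correlation: deviations from the group means correlated by 0.205 to 0.356 across genes in the 4 pairs with the same number and by -0.216 to 0.0396 in the other 12. Genes are not independent replicates, and what the numbers share is not stated. Alternatives were other scalings, a looser filter, DESeq2, a block for the replicate number, leave-one-out fits, and other lengths, pooling and gene sets for the shares.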

Additional observations from a re-analysis of the deposited data

Results flagged for a closer look

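In 103 groups of 4 libraries, the gap between the highest or lowest library and its nearest neighbor was compared with the group's whole range, and in 26 of them this ratio passed Dixon's 95% critical value. Chance flags about 1 in 20 groups, and groups that share a library are not independent. In 17 of the 26, EpCAM+ replicate 1 was the library apart, always as the highest.

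For the constant genes, the ratio in EpCAM+ libraries was 0.958 for *Ighm*, where replicate 1 held 19970 CPM, 0.936 for *Igkc*, 0.949 for *Iglc1*, 0.918 for *Igha*, 0.882 for *Ighg2b*, 0.886 for *Ighg2c*, 0.996 for *Ighg3* and 0.951 for the 10 genes summed. *Ighg1* gave 1 from a single read, for its level and for its share of heavy chain counts. The *Ighg3* share gave 0.943. Replicate 1 was also the library apart for *Jchain* (0.931), *Mzb1* (0.954), *Pou2af1* (0.887), *Cd79a* (0.914), *Derl3* (0.853) and *Hsp90b1* (0.839).

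Other libraries stood apart by class and light chain. EpCAM+ replicate 3 had the highest *Ighm* share (0.860) and the lowest *Igha* share (0.881), which are shares of the same total and so not separate flags. EpCAM+ replicate 4 had the highest λ share, by constant genes (0.842) and by variable genes (0.9498), and the highest *Rag2* level (0.849). EpCAM+ replicate 2 was highest for *Cd72* (0.927).

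In EpCAM- libraries, replicate 1 was highest for *Ighe* (0.892, 11 counts) and *Trp53bp1* (0.873), and replicate 4 was lowest for *Pou2f2* (0.869). The causes were not tested.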

How the results depend on the processing

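The number of genes that differed ran from 4662 to 6039 in leave-one-out fits and was 6818 with the replicate number as a block, against 5779. The split moved with the scaling: upper-quartile scaling gave 3642 higher and 2083 lower, and library totals 3434 and 2073, with the median log2 difference of all genes at 0.11 and 0.10 instead of 0.02. Of the antibody pathway genes, 31 differed (16 higher and 15 lower), 37 with DESeq2, 36 with the replicate block, and 28 to 33 in leave-one-out fits, with 14 higher and 18 lower without EpCAM+ replicate 1.

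When each library was left out, the log2 difference of *Ighm* ranged from 3.06 to 5.36, that of *Iglc1* from 8.37 to 11.40, and the summed level in EpCAM+ libraries from 4073 to 18382 CPM. The *Ighm* share was 79.8% with the length of each gene's shortest transcript, 82.5% with the length implied by FPKM and 82.8% with the EpCAM- *Ighm* level subtracted, 3 alternatives chosen after seeing the data, and 83.2% with the table's lengths and 83.4% with pooled counts. The λ share was 4.71% with all λ constant genes and 10.8% on variable genes, against 1.88% for *Iglc1*. The cause of these shifts was not tested, except that the last 2 count other genes.

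For 36 named pathway genes, 502 of 538 values under alternatives kept their direction and side of the threshold, 29 no longer passed, 7 newly passed and 0 turned. These values include those of *Jchain*, *Mzb1*, *Pou2af1*, *Cd79a* and *Fcrla*, whose calls support nothing because of how they got past the filter. *Jchain* and *Mzb1* had no DESeq2 value among them. In EpCAM- libraries, the light chain constant genes and the genes behind *Ighd* each had fewer than 50 counts per library, so neither was split into shares. Of the heavy chain counts there, the genes behind *Ighd* together held a mean of 0.205%.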

Other observations

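The joining segments *Iglj1* and *Iglj3* of the λ locus, chosen after their values were seen, were read in the EpCAM+ fraction alone. *Iglj1* had 59, 4, 8 and 5 counts in EpCAM+ replicates 1 to 4 and *Iglj3* had 18, 0, 31 and 10. *Iglj1* was highest in replicate 1 and *Iglj3* in replicate 3. Both had 0 counts in all 4 EpCAM- libraries. The heavy chain segments *Ighj2*, *Ighj3* and *Ighj4* together had 8, 8, 5 and 6 counts in EpCAM+ replicates 1 to 4 and 5, 9, 1 and 5 in EpCAM- replicates 1 to 4, so their raw counts overlapped between the fractions. Relative to *Ighm* they were higher in the EpCAM- libraries, as *Ighj1* was.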
